A study of Homo sapiens with 6 samples.

Results

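The transcriptome described here is that of MDA-MB-231BR, a breast cancer line that homes to the brain, after stable expression of a control shRNA. The 3 control libraries were taken by their labelled treatment from the 6 libraries of the series, and each holds 17721 listed genes. MDA-MB-231BR is a brain-tropic derivative of MDA-MB-231, a line established from a triple-negative breast cancer. All 3 cultures had received a lentiviral control shRNA and a short antibiotic selection, and were grown as monocultures in DMEM with 10% serum. The other 3 libraries come from the same line with an shRNA against the acetyl-CoA synthetase ACSS2 and enter no comparison below. The labels call the libraries biological replicates and also record the replicate number as a batch, so culture and batch cannot be told apart. RNA was read as poly(A)-selected whole-cell RNA.

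Triple-negative breast cancers lack the oestrogen receptor, the progesterone receptor and amplified ERBB2. Within this class, mesenchymal or claudin-low lines have lost the epithelial adhesion molecule E-cadherin and express vimentin and other proteins of motile cells. The parental line is known for mutated BRAF and for loss of the CDKN2A locus, and its MAPK signalling drives AP-1 transcription factors, secreted proteases and cytokines. Transcript levels are given as TPM, read counts divided by transcript length and scaled to one total per library, a scale that allows one gene to be set beside another.

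Promoter sequences are shown for genes that mark the extremes of this transcriptome. MT2A and MT1X encode metallothioneins, small proteins that bind zinc and copper, and MT2A had the highest level of all listed genes. EGR1 is an immediate-early transcription factor and was among the genes that differed most between the control cultures. CDKN2A encodes cell cycle inhibitors and had 0 counts in every control library. Each run is the 250 bases before the annotated start, 5′ to 3′ on the gene's strand, from RefSeq on GRCh38.p14. Capitals mark the metal-response core TGCGCNC or TGCACNC on either strand in both metallothionein promoters, the CArG box in EGR1, and CG dinucleotides in CDKN2A.
MT2A, chr16:56608334-56608583, plus strand: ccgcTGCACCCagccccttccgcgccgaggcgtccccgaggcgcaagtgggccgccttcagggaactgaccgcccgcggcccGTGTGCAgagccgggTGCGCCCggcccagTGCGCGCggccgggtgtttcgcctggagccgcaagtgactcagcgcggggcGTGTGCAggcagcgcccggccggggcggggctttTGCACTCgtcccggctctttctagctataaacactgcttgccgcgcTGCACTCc
MT1X, chr16:56682220-56682469, plus strand: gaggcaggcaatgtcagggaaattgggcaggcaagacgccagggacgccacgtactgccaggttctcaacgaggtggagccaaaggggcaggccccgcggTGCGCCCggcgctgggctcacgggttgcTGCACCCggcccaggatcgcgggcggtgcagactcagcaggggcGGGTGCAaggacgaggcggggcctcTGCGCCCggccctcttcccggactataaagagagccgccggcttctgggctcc
EGR1, chr5:138465229-138465478, plus strand: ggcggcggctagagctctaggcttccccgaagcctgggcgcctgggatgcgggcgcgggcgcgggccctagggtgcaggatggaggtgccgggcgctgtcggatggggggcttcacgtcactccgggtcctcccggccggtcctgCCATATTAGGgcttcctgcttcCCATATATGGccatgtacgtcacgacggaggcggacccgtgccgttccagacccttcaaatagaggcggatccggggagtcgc
CDKN2A, chr9:21995325-21995574, minus strand: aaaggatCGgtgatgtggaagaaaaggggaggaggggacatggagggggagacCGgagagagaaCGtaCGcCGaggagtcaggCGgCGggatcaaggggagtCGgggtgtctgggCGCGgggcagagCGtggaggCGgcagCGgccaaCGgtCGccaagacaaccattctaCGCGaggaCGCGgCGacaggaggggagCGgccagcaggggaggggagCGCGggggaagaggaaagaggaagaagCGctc

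The MT2A window, extended to 50 bases after the start, held 8 matches of the metal-response core, 7 of them before the start. It also held TATAAA beginning 29 bases before the start and the AP-1 element TGANTCA beginning 104 bases before it, and neither overlapped a metal-response match. The MT1X window held 4 matches, with TATAAA beginning 30 bases before the start. Among 13879 listed genes with a promoter of the same length, 36.6% held the metal-response core at least once, 0.785% held it 4 times or more, and 4 genes held it 8 times or more. The EGR1 window held 2 CArG boxes, beginning 105 and 83 bases before the start, a combination of 2 or more found in 5 of the 13879 promoters. At least 1 CArG box was present in 1.13% of them. The CDKN2A window is 1 of 2 entries for the gene and had 28 CG dinucleotides in 300 bases, against a median of 7 in genes with 0 counts and 24 over all promoters. A sequence match describes the letters of the window and not the binding of a factor.

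Of the 17721 listed genes, 11485 (64.8%) reached at least 1 TPM in all 3 control libraries, and 1441 (8.13%) had 0 counts in all 3. Library totals ran from 16093086 to 18608124 estimated counts, and a gene near 1 TPM rested on a median of 28 to 31 counts per library. With 51570272 counts in sum, a gene at 0 allows up to 3 counts, or 0.0582 CPM (counts scaled to the library totals), for counting error only. Transcripts were concentrated in few genes. The 141 genes with a mean of 1000 TPM or more made up 0.796% of the listed genes and 44.4% of all TPM, while the 4399 genes between 1 and 10 TPM made up 2.06%. The 100 highest genes held 39.3% ± 1.51 of TPM (SD, n = 3), and 186 to 228 genes sufficed for 50% of it.

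**Figure D1:**
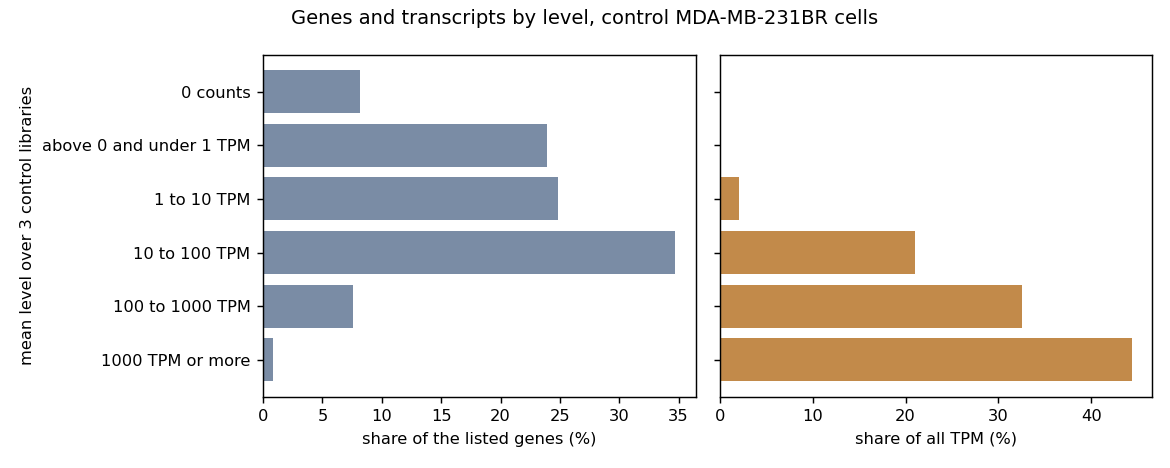
Share of the 17721 listed genes (left, in percent) and of all TPM (right, in percent) by the mean level over the 3 control libraries. Genes at 1000 TPM or more are 0.796% of genes and 44.4% of TPM; those with 0 counts are 8.13% of genes.

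MT2A stood first, at 25594, 29040 and 26790 TPM in replicates 1, 2 and 3. Its mean was 27141 ± 1750 TPM (SD, n = 3), with no overlap with any other gene's values. MT1X had 1250, 923 and 1966 TPM, and MT1E had 875, 1054 and 943 TPM. MT1F and MT1M, further metallothioneins, stayed between 1.16 and 4.65 TPM, and MT1B was at 0, 0.33 and 0 TPM. The 6 listed metallothioneins together held 2.77% to 3.10% of TPM per library. These genes are close copies of each other, so how reads were divided among them is uncertain.

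The other leading transcripts belonged to protein synthesis, glycolysis, iron storage, the cytoskeleton and matrix breakdown. Among the 25 highest genes were RPLP0 and RPL41 of the ribosome and the elongation factor EEF1A1. The 84 listed cytosolic ribosomal protein genes had a median level of 2318 TPM and took 22.1% to 24.2% of TPM. GAPDH, a glycolytic enzyme, had 16411, 9388 and 8589 TPM, and the replicate 1 library was well above the others. FTL, the light chain of the iron store ferritin, had 6181, 6902 and 8469 TPM. MMP1, a secreted collagenase, ranked 5 of 17721 with 6987, 10659 and 12130 TPM, lowest in replicate 1. HMGA1, an architectural chromatin protein, had 4867, 5663 and 11442 TPM, with replicate 3 apart from the others. MTRNR2L2, at 7440, 9171 and 17278 TPM, is a near-identical nuclear copy of a mitochondrial ribosomal RNA gene, so the source of its reads is uncertain. The 8 listed genes of that kind took 1.03%, 1.31% and 2.61% of TPM.

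The steroid receptors that define breast cancer classes were low. ESR1, the oestrogen receptor, had 0.57, 0.88 and 0.58 TPM, and PGR, the progesterone receptor, had 0.07, 0.24 and 0.08 TPM. Of 25 listed nuclear receptors, 20 (80%) reached 1 TPM in all libraries, beside 64.8% of all listed genes. The highest was RARG, a retinoic acid receptor, with 76.1, 76.8 and 144 TPM, ahead of the liver X receptor NR1H2 (104, 76.2 and 85.5 TPM) by mean but with overlapping values. PPARG, the receptor of fat cell differentiation, had 49.2, 91.9 and 94.9 TPM. The glucocorticoid receptor NR3C1 was steady at 15.4, 17.2 and 14.9 TPM, and RXRG had 0 counts.

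EGFR was the main receptor of its family. Its level was 108, 142 and 164 TPM, against 31.9, 26.7 and 26.5 TPM for ERBB2. The ratio of EGFR to ERBB2 was 3.38 to 6.21 over the libraries, and the values did not overlap. ERBB3, the kinase-impaired partner, had 3.18, 4.02 and 6.37 TPM, and ERBB4 stayed at or under 0.10 TPM. Among 11 EGF-type ligands, 7 (63.6%) reached 1 TPM, near the 64.8% of all listed genes. The highest was HBEGF with 192, 371 and 324 TPM. AREG (20.97, 57.9 and 53.2 TPM) and EREG (19.2, 64.1 and 24.3 TPM) were lower, and EGF itself stayed at or under 0.38 TPM.

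AXL and EPHA2 led the remaining receptor tyrosine kinases. AXL, a receptor linked to invasion, had 385, 468 and 562 TPM, and its ligand gene GAS6 had 127, 125 and 142 TPM. EPHA2, an ephrin receptor, had 300, 275 and 347 TPM, overlapping with none of the AXL values. TIE1, best known from endothelium, followed with 125, 136 and 191 TPM. MET, the receptor of hepatocyte growth factor, had 34.6, 41.2 and 36.2 TPM, and its ligand gene HGF had 0 counts. AXL exceeded MET by 11.1 to 15.5 times. Of 39 such receptors, 18 (46.2%) reached 1 TPM, beside 64.8% of all listed genes. A mean under 0.1 TPM was found for 10 of the 39, KIT among them with 0.02 TPM in each library, beside 19.5% of all listed genes. In the panel of 28 G protein-coupled receptors, 17 (60.7%) reached 1 TPM, near the share of all genes. ADGRE5 (185, 121 and 96.7 TPM), GPRC5A (79.7, 121 and 173 TPM) and the adenosine receptor ADORA2B (56.0, 102 and 186 TPM) were highest, with overlapping values.

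Epithelial and mesenchymal transcripts coexisted. CDH1, which encodes E-cadherin, had 0 counts in all 3 libraries, as did GRHL2, an activator of epithelial genes, and the basal keratin KRT5. EPCAM had 3.46, 4.39 and 1.51 TPM, CLDN3 had 0.32, 0.60 and 0.27 TPM, and the epithelial splicing factor ESRP1 had 0.61, 1.27 and 1.04 TPM. Keratins of simple epithelium were nevertheless abundant. KRT8 had 604, 343 and 333 TPM, its partner KRT18 had 472, 213 and 196 TPM, and KRT19 had 315, 357 and 613 TPM. KRT8 and KRT18 were both highest in replicate 1, and their values overlapped. CLDN7, a tight junction claudin, had 72.4, 67.9 and 101 TPM. Of 19 listed luminal markers 12 (63.2%) reached 1 TPM, and so did 12 of 19 basal markers, close to the 64.8% of all genes.

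The highest members of the basal panel were not keratins. LAMB3, a laminin-332 chain, had 270, 356 and 470 TPM, and SFN, a 14-3-3 protein of epithelia, had 277, 209 and 208 TPM. TP63, the master factor of basal cells, stood at 3.07, 3.02 and 2.98 TPM, and KRT14 at 0.61, 2.51 and 1.24 TPM. The basal keratins KRT17 (6.19, 20.5 and 11.8 TPM) and KRT15 (3.17, 15.5 and 24.4 TPM) were higher by mean and lowest in replicate 1. Luminal regulators were present at low to moderate levels: GATA3 had 3.28, 3.66 and 3.01 TPM, and FOXA1 had 13.9, 15.4 and 20.5 TPM. The cytoplasmic partners of cadherins were well expressed in the absence of CDH1 reads, with CTNNB1, which encodes beta-catenin, at 150, 120 and 108 TPM. In the junction panel 19 of 23 genes (82.6%) reached 1 TPM, beside 64.8% of all listed genes.

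VIM, the intermediate filament of mesenchymal cells, was among the highest and steadiest transcripts, at 5523, 5468 and 5450 TPM, a coefficient of variation of 0.695%. It exceeded KRT8 by 9.15 to 16.4 times. MSN, which links membrane and actin, had 1334, 1629 and 2009 TPM. The mesenchymal cadherin was CDH11, at 82.9, 64.8 and 61.7 TPM, whereas CDH2, or N-cadherin, stayed at or under 0.12 TPM. Fibronectin (FN1) was moderate at 41.6, 29.0 and 28.3 TPM. COL1A2 had 0 counts and SPARC had 0.24, 0.91 and 1.17 TPM. In all, 16 of 21 mesenchymal markers (76.2%) reached 1 TPM, beside 64.8% of all listed genes.

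The transcription factors of the mesenchymal state were unevenly used. HMGA2, a chromatin protein of embryonic and tumour cells, had 44.5, 38.5 and 85.1 TPM. SNAI1 had 24.1, 66.6 and 46.2 TPM, SNAI2 had 29.4, 39.4 and 19.1 TPM, and ZEB1 had 12.4, 21.5 and 14.3 TPM. SNAI1 exceeded SNAI2 in 2 of 3 libraries, so the order of these genes was not fixed. ZEB1 exceeded its paralogue ZEB2 by 4.63 to 6.83 times in every library. TWIST1 and TWIST2 had 0 counts. CD44, a hyaluronan receptor used to mark stem-like breast cancer cells, was steady at 444, 470 and 486 TPM. It exceeded CD24 by 8.75 to 14.5 times, while ALDH1A1 had 0 counts and NANOG, POU5F1 and SOX2 stayed under 1 TPM.

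**Figure D2:**
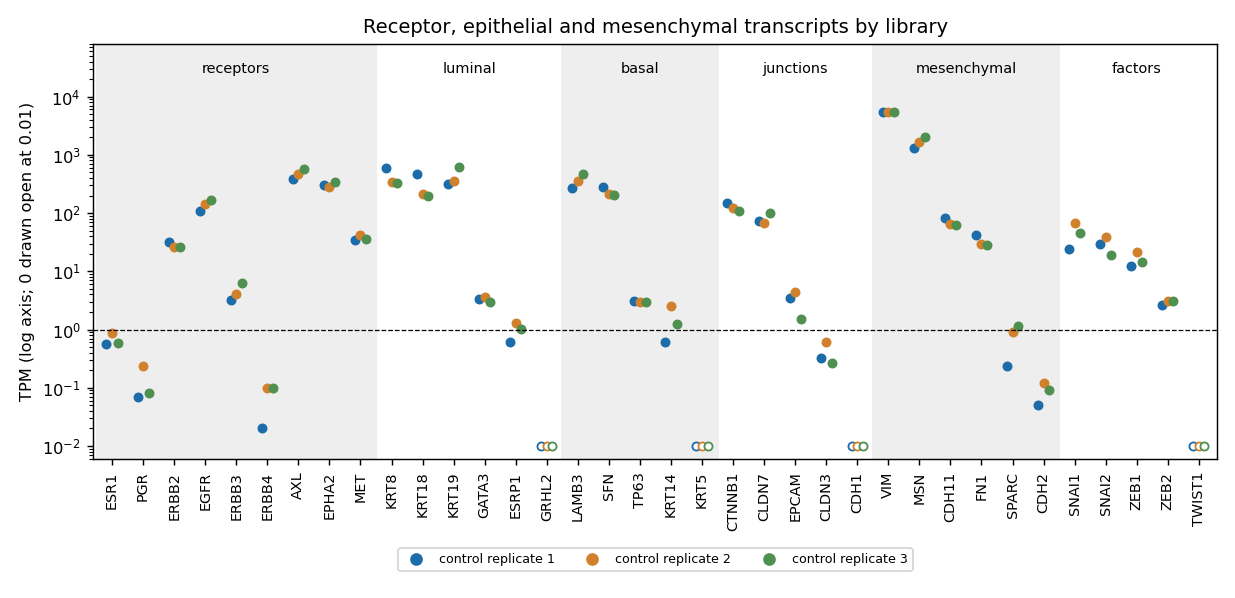
TPM on a log axis for receptor, luminal, basal, junction and mesenchymal genes and mesenchymal transcription factors; each point is 1 control library, open points at 0.01 stand for 0, and the dashed line is 1 TPM. EGFR lies above ERBB2 and VIM above KRT8 in every library, and CDH1, GRHL2, KRT5 and TWIST1 are at 0 in all 3.

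Targets and feedback regulators of MAPK signalling were abundant while BRAF itself was low. FOSL1, the AP-1 subunit FRA1, had 1370, 1725 and 3051 TPM. All 20 members of the RAS, RAF and MAPK list reached 1 TPM, beside 64.8% of all listed genes. HRAS had 103, 70.5 and 51.1 TPM and NRAS had 23.6, 29.9 and 21.5 TPM, with no overlap between them. BRAF had 2.37, 2.77 and 3.34 TPM. Downstream, MAP2K2 (396, 300 and 391 TPM) exceeded MAP2K1 by 5.77 to 7.85 times. The phosphatase DUSP6, a feedback inhibitor of ERK, had 226, 393 and 250 TPM.

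Among further oncogenes 29 of 32 (90.6%) reached 1 TPM, beside 64.8% of all listed genes. CCN1, a matricellular target of YAP, had 1389, 3276 and 2443 TPM, and MYC had 370, 485 and 506 TPM. MYCN had 0 counts. The survival gene BCL2L1 had 311, 381 and 602 TPM, 89.8 to 250 times BCL2. CCND1 was the main D-type cyclin with 184, 162 and 178 TPM, 1.49 to 3.10 times CCND3. Of 24 tumour suppressors 20 (83.3%) reached 1 TPM, beside the same 64.8%. CDKN1A, a cell cycle inhibitor, was highest by mean with 121, 75.2 and 76.3 TPM. RB1 had 15.1, 14.4 and 8.02 TPM, and NF2 had 4.47, 4.89 and 4.67 TPM.

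The absent suppressors were neighbours on chromosome 9. CDKN2A and CDKN2B had 0 counts, and MTAP, an enzyme of methionine salvage, had 0, 0 and 0.04 TPM. They sat in a run of 7 consecutive listed genes under 0.5 TPM in every library, with FOCAD, HACD4, KLHL9 and ELAVL2. FOCAD was highest of these with 0.13, 0.38 and 0.24 TPM. On one side of the run MLLT3 had 1.87, 4.26 and 3.20 TPM, and on the other TUSC1 had 5.26, 4.22 and 4.51 TPM. Runs of 7 or more such genes numbered 25 over the autosomes and X. Among these were runs of related neighbouring genes, such as the USP17L genes and the CT47A genes. The count describes run length only, and the cause of the chromosome 9 run was not tested. The genomic copy number was not measured.

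A longer silent run covered the HOXA cluster on chromosome 7. It held 12 consecutive genes up to EVX1 that were under 0.5 TPM, and 10 of them had 0 counts. HOXA11 had 0, 0 and 0.04 TPM and HOXA13 had 0.19, 0.38 and 0.18 TPM. The flanking genes SKAP2 (9.41, 12.7 and 11.3 TPM) and HIBADH (21.5, 40.7 and 43.4 TPM) were expressed. HOX genes give positional identity, and none of 11 HOXA genes reached 1 TPM, against 4 of 9 in HOXB, 4 of 8 in HOXC and 3 of 8 in HOXD. The shares in HOXB, HOXC and HOXD were 44.4%, 50% and 37.5%, also under the 64.8% of all listed genes. The highest HOX transcript was HOXB9, with 68.7, 77.9 and 118 TPM, followed by HOXD1 (8.77, 13.8 and 14.6 TPM) and HOXC6 (10.0, 7.69 and 7.90 TPM).

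**Figure D3:**
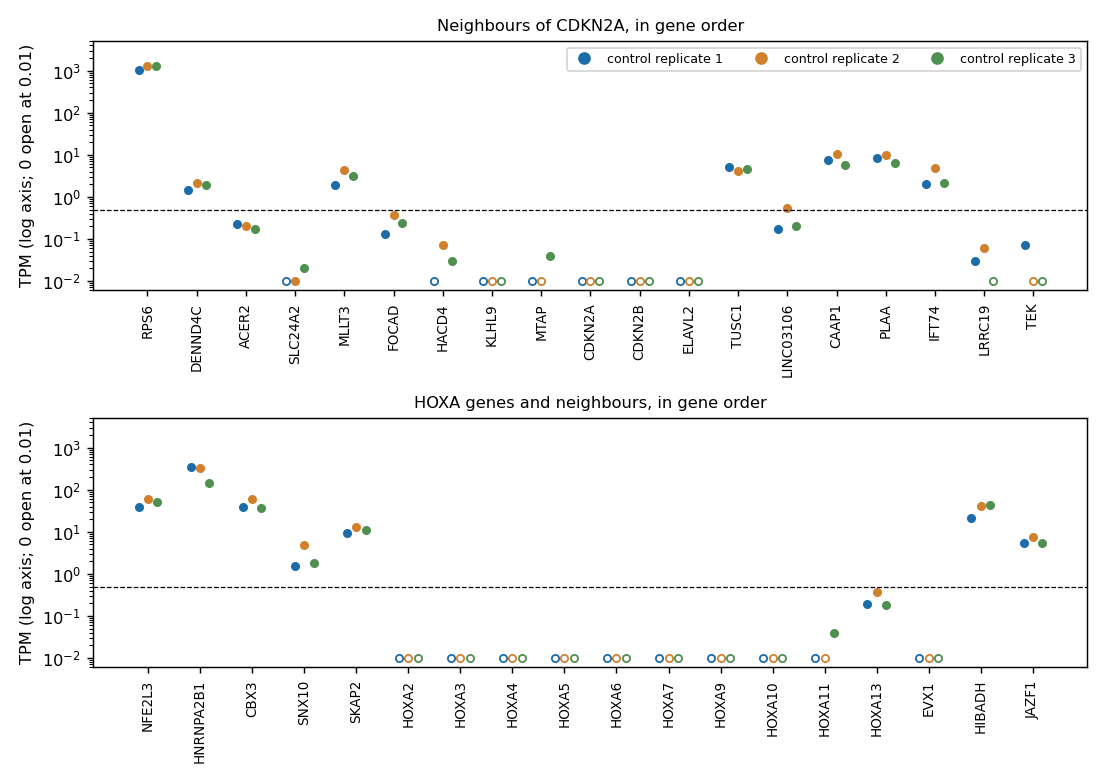
TPM on a log axis, 1 point per control library, for listed genes in chromosomal order around CDKN2A (upper panel) and the HOXA cluster (lower panel); open points at 0.01 stand for 0 and the dashed line is 0.5 TPM. FOCAD to ELAVL2 (7 genes) and HOXA2 to EVX1 lie under the line in all libraries, between expressed neighbours.

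Glycolytic transcripts were high, and isoenzymes of one step differed in level. ENO1 had 4398, 2850 and 3808 TPM, PKM had 3628, 1682 and 1835 TPM, and ALDOA had 2433, 1301 and 1684 TPM. ENO1 exceeded ENO2 by 39.1 to 61.3 times, and the liver-type PKLR stayed at or under 0.05 TPM. HK1 (227, 171 and 170 TPM) exceeded HK2 (58.5, 44.2 and 52.1 TPM) by 3.27 to 3.87 times. LDHA, which forms lactate, had 1827, 831 and 717 TPM and exceeded LDHB by 1.97 to 5.57 times. The list of 32 glycolysis genes took 3.44%, 1.95% and 2.04% of TPM, highest in replicate 1. Of its 25 members at 1 TPM or more, 17 were highest there, a share not counted over all genes. The highest library was at least 2 times the lowest for 10 of the 25 (40%), beside 17.3% of all genes at that level.

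Transporters of glucose and lactate also differed in level. SLC2A1, the glucose transporter GLUT1, had 317, 155 and 191 TPM and exceeded SLC2A3 by 6.17 to 16.5 times. The lactate exporter SLC16A3, or MCT4, had 494, 222 and 230 TPM. SLC16A1, or MCT1, which carries lactate in either direction, had only 0.32, 0.43 and 0.08 TPM. Mitochondrial genes were present throughout. In the pyruvate, citric acid cycle and glutamine list, 36 of 38 genes (94.7%) reached 1 TPM, beside 64.8% of all listed genes. MDH2 was highest at 446, 399 and 410 TPM, and citrate synthase (CS) was steady at 106, 106 and 103 TPM.

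For cytosolic acetyl-CoA, ACLY, which cleaves citrate, was the higher source enzyme at 230, 146 and 158 TPM. ACSS2, which makes acetyl-CoA from acetate and is the gene targeted elsewhere in the study, had 43.7, 44.5 and 94.5 TPM, with replicate 3 at over 2 times each of the others. ACLY exceeded ACSS2 by 5.27, 3.29 and 1.68 times in replicates 1, 2 and 3. The mitochondrial relatives were lower, with ACSS3 at 11.03, 10.52 and 13.02 TPM and ACSS1 at 3.92, 4.86 and 6.48 TPM. FASN, the fatty acid synthase, had 506, 263 and 385 TPM, and the desaturase SCD had 485, 195 and 331 TPM. Both were highest in replicate 1 and lowest in replicate 2. Of 30 genes of acetyl-CoA and fatty acid synthesis 26 (86.7%) reached 1 TPM, beside 64.8% of all listed genes.

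All 26 listed genes of amino acid supply and redox defence reached 1 TPM, beside 64.8% of all listed genes. GPX4, which reduces lipid peroxides and limits ferroptosis, had 847, 752 and 911 TPM, and GPX1 had 937, 721 and 1186 TPM, overlapping with it. SLC7A11, the cystine importer that supplies glutathione synthesis, was the lowest of the list by mean, at 4.85, 10.45 and 11.5 TPM, lowest in replicate 1. GPX4 exceeded it by 71.9 to 175 times. PHGDH, the entry enzyme of serine synthesis, had 62.9, 49.97 and 58.1 TPM.

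**Figure D4:**
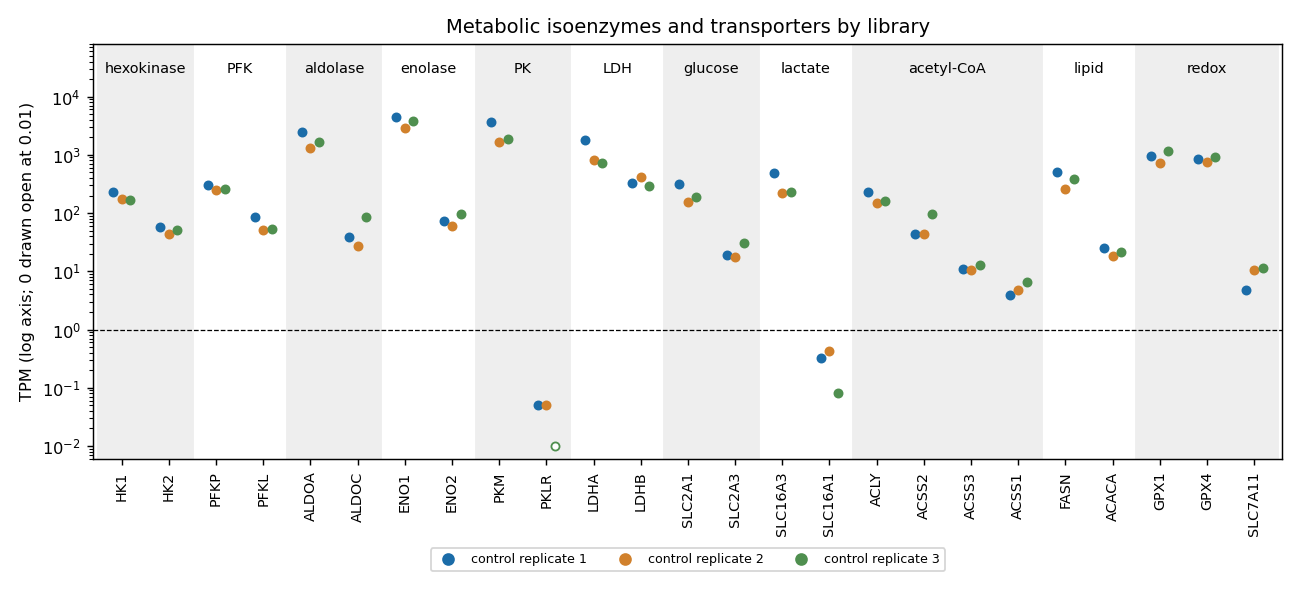
TPM on a log axis for isoenzymes and transporters of glycolysis, lactate export, acetyl-CoA and lipid synthesis and redox defence; each point is 1 control library, open points at 0.01 stand for 0, and the dashed line is 1 TPM. PKLR and SLC16A1 lie under 1 TPM in all libraries; ACSS2 in replicate 3 lies above the other replicates.

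Over 38 gene pairs compared by library, the first gene of the pair was higher in all 3 libraries in 36, and the values did not overlap in 34. The values overlapped for KRT8 and KRT18, SNAI1 and SNAI2, SNAI2 and ZEB1, and GPX1 and GPX4. Pairs were listed with their levels known and get no test, and an exact two-sided paired test over 3 libraries cannot go below p = 0.25.

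Secreted proteases and cytokines formed a prominent group. TIMP1, an inhibitor of matrix proteases, had 851, 645 and 929 TPM, and the membrane protease MMP14 had 447, 317 and 397 TPM. MMP1 exceeded MMP14 by 15.6 to 33.6 times. MMP2, a gelatinase, stayed at or under 0.04 TPM. PLAU, or urokinase, had 434, 381 and 323 TPM, and its receptor PLAUR had 360, 335 and 268 TPM. PLAT, or tissue plasminogen activator, differed strongly between libraries, at 162, 516 and 1381 TPM. Of 25 proteases and inhibitors 21 (84%) reached 1 TPM, beside 64.8% of all listed genes.

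Among cytokines, MIF was highest at 3062, 2367 and 2419 TPM. The neutrophil attractant CXCL8 had 1182, 1897 and 476 TPM, and IL1B had 760, 782 and 502 TPM. The growth factors CSF3 (860, 459 and 114 TPM) and CSF2 (281, 116 and 19.9 TPM), with IL6 (142, 57.1 and 9.82 TPM), were each highest in replicate 1 and lowest in replicate 3. Of the 19 cytokines at 1 TPM or more, 13 (68.4%) had a highest library at least 2 times the lowest, beside 17.3% of all genes at that level. TNF stayed at or under 0.13 TPM. On the surface, LGALS1, or galectin-1, had 1971, 2007 and 2088 TPM, and the checkpoint ligand CD274 had 9.10, 45.8 and 40.4 TPM.

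Germ line and skin transcripts were mostly silent, with abundant exceptions. Of 22 listed cancer-testis genes, 6 (27.3%) reached 1 TPM and 13 had a mean under 0.1 TPM, a bound under which 19.5% of all listed genes fell. SPANXB1, a sperm protein gene, had 1308, 2790 and 2245 TPM, and MAGEA6 had 59.3, 56.2 and 47.0 TPM. MAGEA4 and CTAG1B had 0 counts. Both MAGEA and SPANX genes have close copies, so their division of reads is uncertain. Of 27 keratin-associated protein genes, which serve hair, 2 reached 1 TPM, led by KRTAP2-3 with 58.3, 869 and 678 TPM. Only 9 of 36 type I and II keratins (25%) and 1 of 58 olfactory receptors reached it, beside 64.8% of all listed genes.

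The label of a tumour cell line was checked against markers of other cells. Over all listed genes, 64.8% reached 1 TPM in all 3 libraries. Of 12 immune markers 2 reached 1 TPM, namely CD68 (380, 586 and 888 TPM), a lysosomal protein that many cell types make, and CD8A (2.23, 2.19 and 1.65 TPM). The pan-leukocyte gene PTPRC stayed at or under 0.18 TPM. Of 10 fibroblast markers only COL1A1 reached it, at 5.43, 5.55 and 3.99 TPM, and DCN and LUM were at or under 0.03 TPM. Of 12 endothelial markers 6 reached it, led by ESAM (233, 181 and 201 TPM), TIE1 and EGFL7 (88.5, 115 and 170 TPM), with KDR at 1.46, 3.39 and 7.34 TPM and PECAM1 at 2.12, 1.24 and 1.03 TPM. CDH5 and VWF stayed under 1 TPM, and CLDN5 and EMCN had 0 counts. Of 15 glial and neuronal markers 5 did, led by MBP (40.5, 52.8 and 73.6 TPM) and RBFOX3 (1.19, 10.2 and 21.3 TPM), while GFAP stayed at or under 0.07 TPM and SNAP25 had 0 counts. In the panel of brain metastasis genes, the highest was ITGA3, an integrin chain, with 370, 354 and 425 TPM. L1CAM had 5.59, 12.98 and 16.0 TPM and ST6GALNAC5, a sialyltransferase, had 0.89, 2.70 and 2.17 TPM.

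The control cultures were not uniform. Among the 11485 genes at 1 TPM or more, the median coefficient of variation was 19.7%, against 4.28% from counting error alone, and it exceeded counting error for 95.2% of genes. With edgeR the biological coefficient of variation was 27.3%. The highest library was at least 2 times the lowest for 1982 genes (17.3%), at least 1.5 times for 5283 and at least 3 times for 523. Of the 1982, the library farthest from the others was replicate 1 for 910 genes, replicate 3 for 696 and replicate 2 for 376. Counting over pairs, which by itself lowers the number, left 671 genes without replicate 1, 859 without replicate 3 and 1325 without replicate 2. Across genes, log2(TPM + 1) correlated with a Pearson coefficient of 0.969 between replicates 1 and 2, 0.955 between 1 and 3, and 0.975 between 2 and 3, as a description over genes that are not independent.

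**Figure D5:**
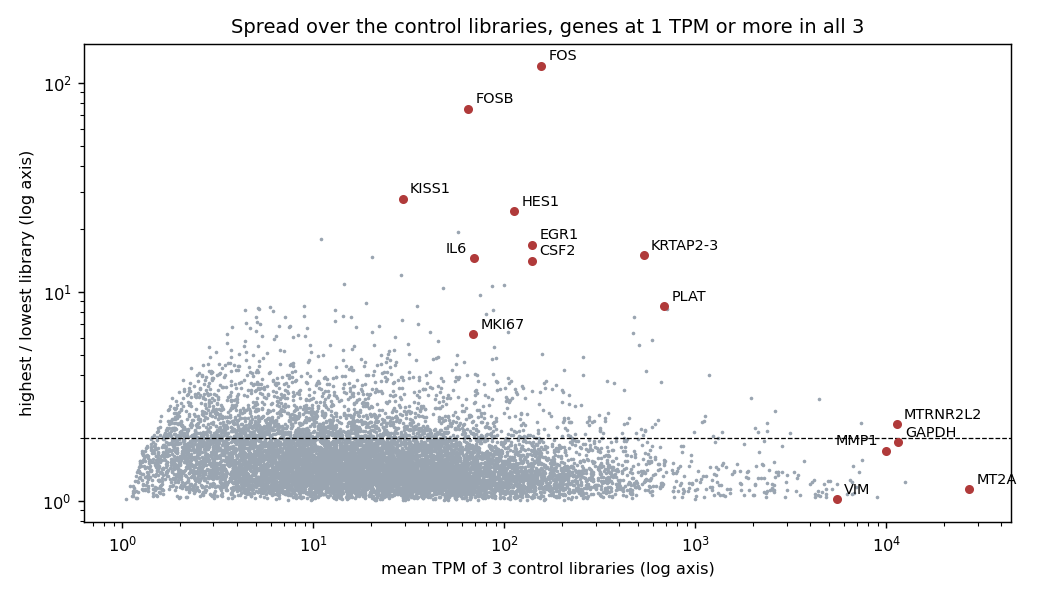
Ratio of the highest to the lowest control library against the mean TPM, both on log axes, for the 11485 genes at 1 TPM or more in all 3 libraries; the dashed line is a ratio of 2 and named genes are in red. FOS has the highest ratio, 121, at a mean of 156 TPM, while VIM and MT2A lie near 1.

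Immediate-early genes stood out in replicate 2. These genes respond within minutes to a stimulus of the cells. FOS had 3.82, 461 and 4.19 TPM, a highest to lowest ratio of 121, above that of any other gene averaging 10 TPM or more. FOSB had 2.49, 187 and 4.86 TPM. EGR1, whose promoter is shown above, had 22.2, 372 and 26.2 TPM, and HES1, a Notch target, had 26.9, 298 and 12.3 TPM. Of 19 such genes at 1 TPM or more, 13 (68.4%) had a ratio of at least 2, beside 17.3% of all genes at that level. Highest in replicate 2 were 15 of the 19, a share not counted over all genes. The list was drawn up after the spread was seen. DUSP1 (137, 767 and 620 TPM) and ZFP36 (68.7, 255 and 290 TPM) differed in that replicate 3 was high as well. Of 18 with a promoter entry, EGR1 alone held a CArG box in the window.

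In a list of DNA replication and mitosis genes, most were highest in replicate 1 and lowest in replicate 3. MKI67, which encodes the proliferation antigen Ki-67, had 118, 69.1 and 18.9 TPM, and RRM2, a ribonucleotide reductase subunit, had 149, 70.7 and 19.2 TPM. MYBL2 had 153, 55.3 and 15.9 TPM, and GINS2, a part of the replicative helicase, had 58.9, 22.9 and 4.87 TPM. Of 24 such genes, also listed after the spread was seen, 23 had a ratio of at least 2. Of the same 24, 22 had their highest value in replicate 1 with replicate 2 between the others. That order was held by 22.7% of the 11485 genes at 1 TPM or more, and by 28.7% of the 1982 with a ratio of at least 2. In the PAM50 panel of breast cancer subtypes, 23 of 42 genes at 1 TPM or more (54.8%) had a ratio of at least 2, beside 17.3% of all genes at that level, and 16 had the same order, beside 22.7% of all. The panel shares 7 of its 50 genes with the replication and mitosis list and is not separate from it. Outside that list, its cell cycle genes KIF2C, BIRC5, ANLN, CEP55, CDC6, NUF2, MELK, ORC6, CENPF and EXO1 also had such a ratio. PTTG1, UBE2T, NDC80 and CCNE1 of the panel did not. These, with ANLN, CEP55, NUF2 and CENPF, were highest in replicate 2. KIF2C, BIRC5, CDC6, MELK, ORC6 and EXO1 were highest in replicate 1, and both sets were lowest in replicate 3. The mean of MKI67 was 68.7 TPM over 3 libraries and 44.0 TPM without replicate 1. In bulk RNA, fewer cycling cells and less of these transcripts per cell cannot be told apart.

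Other variable genes had other orders. KISS1, a metastasis suppressor peptide, had 2.22, 24.0 and 61.8 TPM, and the matrix protein gene ADAMTSL4 had 2.52, 21.8 and 36.9 TPM. Both rose from replicate 1 to replicate 3, the reverse of most genes of the replication and mitosis list. Replicate 2 lay between the others for 1103 (55.7%) of the 1982 genes with a ratio of at least 2. IL24 had 4.71, 90.5 and 75.5 TPM, low in replicate 1 alone. The steadiest gene with a mean of at least 100 TPM was SUPT4H1, a transcription elongation factor, at 121 TPM in each library. EMP1, RPL7L1, VIM and DYNLRB1 were also among the 6 lowest ratios, which ran from 1.00 to 1.01.

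Promoter composition varied with level. The 300-base windows of genes with 0 counts had a median GC content of 56.3% and 7 CG dinucleotides, against 66.0% and 27 for genes between 10 and 100 TPM and 61.3% and 25 for genes at 1000 TPM or more. TATAAA was found in 17.6% of windows of genes with 0 counts, in 4.34% between 10 and 100 TPM and in 13.3% at 1000 TPM or more, beside 7.75% of all. The AP-1 element TGANTCA was present in 7.09%, 4.09% and 6.19% of the same classes and in 5.42% of all. CACCTG, on either strand, was present in 21.9%, 17.6% and 9.73%, and in 19.4% of all. Promoters were matched for 70.4% of genes with 0 counts and for 80.1% of genes at 1000 TPM or more, and no test was made.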

How the data were processed

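Total RNA of the 3 control cultures was sequenced after oligo(dT) enrichment on a BGI platform, per the labels' protocols. Per the submitters' processing notes, HISAT, Bowtie2 and RSEM were used; their versions were not stated. The authors deposited TPM values and expected counts per gene, which RSEM divides among genes that share reads; 10.47% to 13.0% of the expected counts were not whole. FPKM values were not used here. From the table, 565 lines of spilled annotation text were left out, and 17479 of 17721 gene IDs were matched to RefSeq, which restored 26 symbols that had turned into dates. Gene coordinates are on GRCh38. Whether counting used strand is not given, so overlapping genes may share reads.

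Levels are deposited TPM, with mean, SD and the highest to lowest ratio over 3 libraries. A gene is called expressed at 1 TPM or more in all 3. The biological coefficient of variation came from edgeR 4.0.16 (common dispersion, TMM scaling, expected counts rounded to whole numbers), with DESeq2 1.42.0 size factors as an alternative; the steps were tested on simulated data. Named genes are the 25 highest, the key genes and 4 highest of each of 32 lists, the 3 highest of each of 24 families, the 12 most variable with a mean of 10 TPM and the 6 least variable with a mean of 100 TPM. Others are named where a list's pattern, a pair or a neighbourhood turns on them, chosen after their values were seen. Members and lists were chosen with earlier results of these data known; 2 lists and 2 families were added, and 3 family name patterns corrected, later. Whether the replicates pair with those of the other group was not used.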

Additional observations from a re-analysis of the deposited data

How the results depend on the processing

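The number of genes at 1 TPM in all 3 libraries stayed within 1.5 times of 11485 under each alternative that was run, from 10568 at 2 TPM to 12470 at 10 expected counts. Genes with 0 counts numbered 1441, 2842 with at most 3 counts in sum and 3458 with a mean under 0.1 TPM. The 100 highest genes held 39.3% of TPM but 23.5% of expected counts, 31.4% with ribosomal protein genes left out, and 11.01% for the 10 highest alone. The median coefficient of variation was 19.7%, 26.0% for all genes above 0, and 13.8% to 17.9% with 1 library left out; as a median SD it was 0.26 on log2(TPM + 1) and 0.28 on log2(TPM + 0.1). Genes with a ratio of at least 2 numbered 1982, 1012 with a mean of at least 10 TPM, 1809 with TMM-scaled counts, 5283 at a ratio of 1.5 and 523 at a ratio of 3, and 671 to 1325 with 1 library left out. The biological coefficient of variation was 27.3%, and 22.5% to 31.9% with 1 library left out. Of 344 named genes 283 reached 1 TPM, and 284 to 287 with 1 library left out. Without replicate 1, 2 or 3 the mean moved by over 1.5 times for 13, 8 and 8 of 288 named genes with a mean of 1 TPM or more, MKI67, FOS and PLAT among them. 2 alternatives were chosen after seeing the data. Leaving out the mitochondrial rRNA-like genes moved the share of the 100 highest genes to 38.6%, by less than its SD over the libraries. Leaving out the immediate-early and replication genes moved the number with a ratio of at least 2 to 1946, by under 1.5 times. The alternatives on FPKM were not run, since annotation text has spilled into those columns. No paired analysis was possible because only 1 group is described. Depth limits statements on genes under 1 TPM, where the median coefficient of variation was 83.4% and counting alone gives 62.3%.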

Other observations

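The share of listed genes at 1 TPM or more in all 3 control libraries was 64.8%. Among the autosomes and X it was lowest on X, at 53.0% of 710 genes. Over the autosomes it ran from 59.5% of 190 genes on chromosome 21 to 70.6% of 541 genes on chromosome 14. Zinc finger genes of the ZNF series had a median of 2.26 TPM, and 315 of 496 reached 1 TPM, whereas all 77 mitochondrial ribosomal protein genes did, with a median of 69.2 TPM. Of 39 proteasome subunits 38 reached it, with a median of 90.8 TPM. Of 48 clustered protocadherins 5 did, the highest being PCDHGC3 with 10.2, 6.20 and 5.21 TPM.

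P2RY11, a nucleotide receptor, was listed at 0, 0 and 16.6 TPM, chosen after its values were seen. Its expected counts, 292.7 over the 3 libraries, were not whole, so how reads were divided among genes is uncertain. TXNIP, a glucose-responsive inhibitor of thioredoxin, had 156, 688 and 1291 TPM in replicates 1, 2 and 3. The longest run of consecutive listed genes under 0.5 TPM held 20 genes of the skin barrier region on chromosome 1, from LOC100131107 to S100A8, and 12 genes from KRT83 to KRT78 formed another on chromosome 12.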
